A study of Mus musculus with 6 samples.

Results

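The genes described here make, sense, move and store cholesterol: the enzymes of the mevalonate and sterol pathways, the proteins that control the transcription factor SREBP2, and proteins of sterol uptake, trafficking and esterification. They were chosen by name, for their known roles, and 29 of the 30 names had a row in the table of 25416 genes (the expression of Mylip was not analysed here). Expression was measured by RNA sequencing in AML12, a mouse hepatocyte line derived from an animal transgenic for human TGF alpha and grown in medium with serum and insulin. The libraries were of cells transfected with siRNA against Setdb1 (siSetdb1, n = 3) and of cells transfected with scrambled RNA (siNC, n = 3). All cells were taken 72 h after transfection, and both groups carry the transgene and went through transfection. The comparison asks which transcripts differ when Setdb1, the gene of a histone methyltransferase that marks chromatin for silencing, is reduced in a hepatocyte line.

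Cholesterol is built from acetyl-CoA through mevalonate, isoprenoid diphosphates, squalene and lanosterol. SREBP2 is held in the endoplasmic reticulum by its escort SCAP and the INSIG proteins when sterols are plentiful, and when sterols are scarce it travels to the Golgi, is cut, and turns on the enzymes of the pathway and genes of lipoprotein uptake. The liver is a main site of both synthesis and uptake, and hepatocytes also store cholesterol as esters and turn it into bile acids.

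Values are FPKM, read numbers scaled to exon length and to library size, so levels of different genes can be compared roughly. Some of these genes share sequence with others, and how reads that fit several genes were counted is not given. Setdb1 stood at 4.29, 4.21 and 3.29 FPKM in siSetdb1 libraries and at 8.41, 8.54 and 9.43 FPKM in siNC libraries, with no overlap (log2 fold change -0.995, SE 0.10, adjusted p = 0.00183, limma). The libraries held 16790582 to 17835059 reads. In siNC, replicate 1 stood apart from replicates 2 and 3 on both leading principal components of all genes tested, at -26.6 against -11.6 and -10.8 on the first and at 15.0 against -10.7 and -14.0 on the second. The hepatocyte factor gene Hnf4a was at 27.1 to 32.3 FPKM in siSetdb1 and at 30.2 to 38.2 FPKM in siNC. Alb reached 4.50 FPKM in siSetdb1 and 14.3 FPKM in siNC, and the hepatocyte markers Cps1, Serpina1a and Tat were below 0.16 FPKM in each library. Of the 9 hepatocyte markers tested, the cytokeratin gene Krt18 rose (log2 fold change 0.30, adjusted p = 0.0364, limma), the plasma protein genes Ttr (-1.91, adjusted p = 0.0247) and Trf (-1.39, adjusted p = 0.00816) fell, and 6 did not pass. The 4 macrophage markers with a row summed to 37.5 to 44.3 FPKM in siSetdb1 and to 51.2 to 60.7 FPKM in siNC, nearly all of it from Cd14 and Cd68, which both fell (-0.36 and -0.84), with the defining gene Ptprc at most at 0.0096 FPKM. The summed level of the 5 endothelial markers was at most 0.193 FPKM in siSetdb1 and 0.122 FPKM in siNC, and that of the 5 stellate and fibroblast markers was 0.840 to 1.22 FPKM in siSetdb1 and 0.688 to 0.704 FPKM in siNC. The 5 bile duct markers summed to 1604 to 1784 FPKM in siSetdb1 and to 1611 to 1792 FPKM in siNC, most of it from Krt19. Of the 4 tested, Krt7 (0.50, adjusted p = 0.00827, limma) and Sox9 (0.78, adjusted p = 0.0068) rose, Spp1 fell (-0.92, adjusted p = 0.00689) and Krt19 did not pass. At an adjusted p under 0.05, 33.3% of tested hepatocyte, 100% of the 2 tested macrophage and 75% of tested bile duct markers passed. The 1 tested stellate and fibroblast marker did not. Over all 12846 genes tested the share was 15.1%. The part of these marker levels in the results that follow was not tested. Whether replicate libraries were grown as separate cultures is not stated, so the p-values cover the spread of these libraries alone, and that spread may be technical.

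Of the cholesterol genes, 26 did not pass the test between the groups. All 29 passed the filter on low values, and 3 passed the test at an adjusted p under 0.05. Npc1, a lysosomal cholesterol exporter, rose, and the sterol isomerase gene Ebp and the cholesterol esterifying enzyme gene Soat1 fell. That is 10.3% of the 29 genes, beside 15.1% of the 12846 genes tested, with 1 gene called higher beside a background of 6.87% and 2 called lower beside a background of 8.27%. A positive log2 fold change means a higher level in siSetdb1. It is taken on log2(FPKM + 1) values, so it understates changes at low levels. In RNA pooled from many cells, fewer cells that express a gene and less RNA of it per cell cannot be told apart. An unadjusted p under 0.05 (limma) was found for 6 of the 29 genes, a smaller share than the 32.2% of all genes tested. The log2 fold changes of the 29 genes ran from -0.49 to 0.35 with a median of -0.02, and the median over all genes tested was also -0.02. The median size of the change was 0.14 in the 29 genes and 0.16 in all genes tested. Without overlap between the groups were 9 genes (31.0%), 6 higher and 3 lower in siSetdb1, beside 39.2% of all genes tested, 17.6% higher and 21.6% lower.

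**Figure D1:**
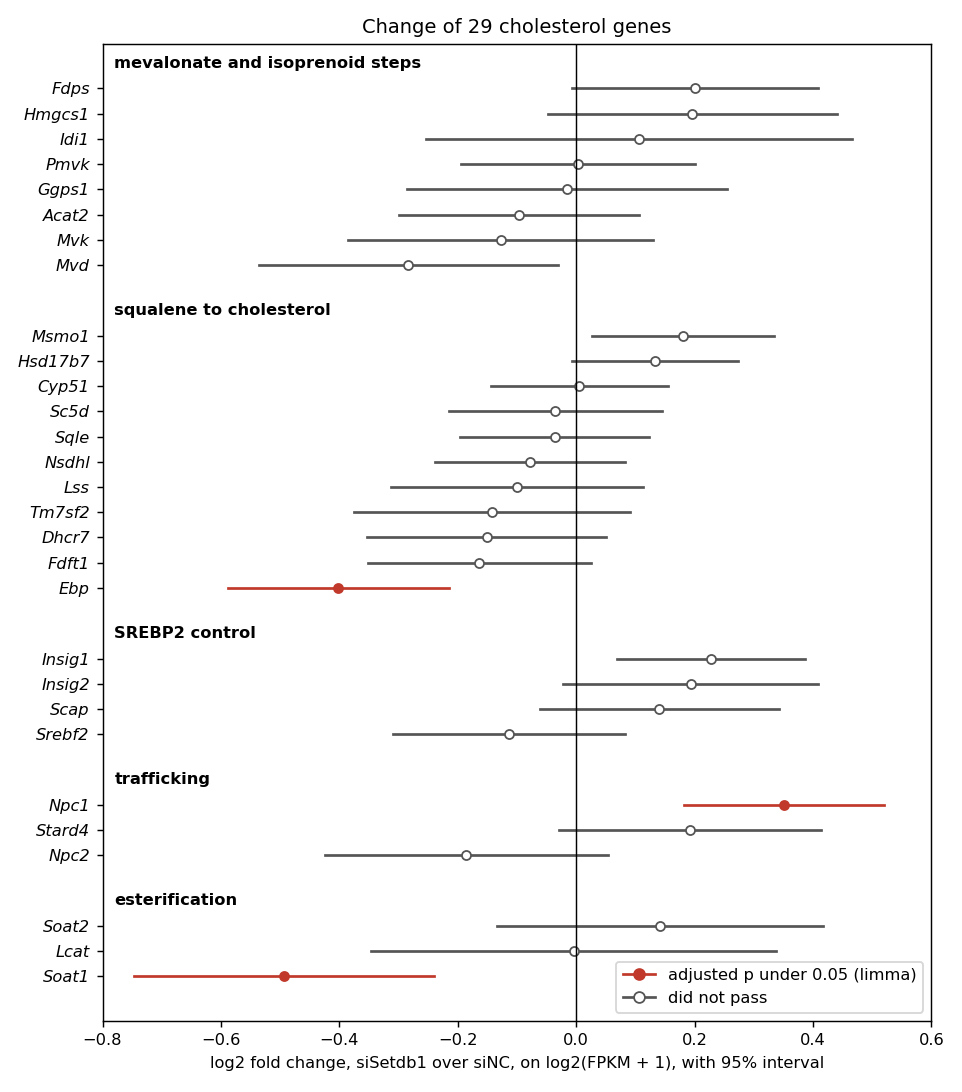
Log2 fold change (siSetdb1 over siNC, from log2(FPKM + 1) values) for the 29 cholesterol genes, grouped by role, with the 95% interval of limma as a line. Filled red points passed at an adjusted p under 0.05 (Npc1 at 0.35, Ebp at -0.40, Soat1 at -0.49), and the open points did not.

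None of the 8 genes of the mevalonate and isoprenoid steps passed the test, and their log2 fold changes were spread on both sides of 0, from -0.28 to 0.20. Mvd, which decarboxylates mevalonate diphosphate, had the largest difference, with 59.4, 49.7 and 58.7 FPKM in siSetdb1 against 77.8, 61.6 and 65.9 FPKM in siNC. Each siSetdb1 library was below each siNC library, the lowest siNC library being only slightly above the highest siSetdb1 library (log2 fold change -0.28, 95% interval -0.54 to -0.03, adjusted p = 0.117, limma). Fdps, the gene of farnesyl diphosphate synthase, had 2.88, 2.66 and 2.64 FPKM in siSetdb1 against 2.42, 1.95 and 2.37 FPKM in siNC, again with no overlap (0.20, 95% interval -0.01 to 0.41, adjusted p = 0.168, limma). Fdps had the lowest level of the 8 genes, from 143 to 209 reads per library, and 26.2% of the 50-base windows of its annotated transcripts also occur in transcripts of other genes.

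The other 6 genes of these steps had overlapping groups. Hmgcs1, the gene of cytosolic HMG-CoA synthase, averaged 93.1 ± 6.0 FPKM in siSetdb1 and 81.5 ± 10.7 FPKM in siNC (SD, n = 3 each). Acat2, the gene of the cytosolic thiolase that makes acetoacetyl-CoA, averaged 78.8 ± 2.7 FPKM in siSetdb1 and 84.6 ± 9.2 FPKM in siNC, and 39.1% of its 50-base windows also occur in its neighbour Acat3, so the split of reads between these paralogs is uncertain. The kinase genes Mvk and Pmvk averaged 26.5 ± 0.9 and 33.2 ± 2.5 FPKM in siSetdb1 and 29.3 ± 4.6 and 33.2 ± 2.4 FPKM in siNC. Ggps1, whose enzyme makes the geranylgeranyl diphosphate used to modify small GTPases, averaged 7.26 ± 0.05 FPKM in siSetdb1 and 7.42 ± 1.31 FPKM in siNC. Idi1, the gene of the isomerase that supplies the allylic isoprenoid unit, had 51.5, 51.8 and 46.8 FPKM in siSetdb1 against 35.5, 53.7 and 52.3 FPKM in siNC. The siNC library that stood apart, replicate 1, was the low one, and the log2 fold change of Idi1 was 0.11 with it and -0.08 without it, neither past the test (adjusted p = 0.67 and 0.427, limma). Of the 50-base windows of Idi1 and Hmgcs1, 25.3% and 11.6% also occur in transcripts of other genes. Summed over the 8 genes, the level was 354, 334 and 355 FPKM in siSetdb1 and 355, 352 and 354 FPKM in siNC.

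Of the 11 genes that lead from farnesyl diphosphate to cholesterol, Ebp fell and 10 did not pass. Ebp (ENSMUSG00000031168) lies on the minus strand of chromosome X at positions 8185329 to 8193512 of mm10, and its enzyme moves a double bond in the sterol ring late in the pathway. It had 103.9, 102.7 and 105.1 FPKM in siSetdb1 against 153.0, 128.3 and 132.7 FPKM in siNC. The siSetdb1 libraries lay within a few FPKM of each other and all were below the siNC libraries. The mean fell by 24.7%, to 103.9 ± 1.2 FPKM in siSetdb1 against 138.0 ± 13.2 FPKM in siNC (log2 fold change -0.40, SE 0.08, 95% interval -0.59 to -0.21, adjusted p = 0.0181, limma). Each library held 4050 to 5935 reads of the gene, and no 50-base window of Ebp occurs in another annotated gene. The change was -0.33 (adjusted p = 0.0108) without siNC replicate 1. Leaving out siSetdb1 replicate 1, 2 or 3 gave Ebp an adjusted p of 0.0745, 0.0753 or 0.0535, and testing all genes unfiltered gave 0.0543.

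Another 2 genes of the sterol branch had groups that did not overlap, both higher in siSetdb1. Msmo1, whose enzyme removes methyl groups from the sterol ring, had 135.6, 124.8 and 136.5 FPKM in siSetdb1 against 113.4, 117.3 and 118.9 FPKM in siNC (log2 fold change 0.18, 95% interval 0.03 to 0.33, adjusted p = 0.106, limma). Hsd17b7, which reduces the ketone left by that demethylation, had 19.92, 19.97 and 20.49 FPKM in siSetdb1 against 18.7, 17.9 and 18.2 FPKM in siNC (0.13, 95% interval -0.01 to 0.27, adjusted p = 0.173). Both differences were small against those of Ebp and did not pass.

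The remaining 8 sterol enzymes had overlapping groups, with log2 fold changes from -0.16 to 0.01. Cyp51, the lanosterol demethylase gene, had the highest level of the 29 genes, at 148.5 ± 6.4 FPKM in siSetdb1 and 147.9 ± 2.8 FPKM in siNC, and the 95% interval of its log2 fold change was -0.14 to 0.15. Sqle, the gene of squalene epoxidase, which is a control point of the pathway, averaged 94.3 ± 5.6 FPKM in siSetdb1 and 96.6 ± 2.5 FPKM in siNC (95% interval -0.20 to 0.12). Nsdhl, which acts with Msmo1 and Hsd17b7, averaged 93.9 ± 5.1 FPKM in siSetdb1 and 99.1 ± 3.6 FPKM in siNC. Fdft1, the gene of squalene synthase and so of the first step committed to sterols, had the most negative value of the 8, -0.16 (95% interval -0.35 to 0.02, adjusted p = 0.208, limma). Of its 50-base windows 26.5% also occur in other genes, with 17.2% in Ctsb on the opposite strand. Ctsb was at 54.8 ± 1.0 FPKM in siSetdb1 and 58.4 ± 3.6 FPKM in siNC. Lss, which folds squalene epoxide into lanosterol, had -0.10, and the reductase genes Tm7sf2 and Dhcr7 and the desaturase gene Sc5d had -0.14, -0.15 and -0.04. Tm7sf2 shares 9.87% of its 50-base windows with Vps51 on the same strand. Vps51 was at 8.82 ± 0.13 FPKM in siSetdb1 and 10.7 ± 1.7 FPKM in siNC. The part of shared reads in the value of Tm7sf2 was not tested. The sum over the 11 sterol genes was 766, 707 and 736 FPKM in siSetdb1 and 800, 752 and 769 FPKM in siNC, so the highest siSetdb1 library lay above the lowest siNC library.

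Of the 4 genes that control SREBP2, none passed. Insig1, the gene of a protein that retains SCAP and is itself a target of SREBP2, came closest, with 73.8, 67.1 and 74.2 FPKM in siSetdb1 against 61.9, 59.0 and 62.2 FPKM in siNC. The groups did not overlap, and the mean was 71.7 ± 4.0 FPKM in siSetdb1 and 61.0 ± 1.8 FPKM in siNC (log2 fold change 0.23, 95% interval 0.07 to 0.39, adjusted p = 0.0615, limma). Its paralog Insig2 averaged 19.8 ± 1.1 FPKM in siSetdb1 and 17.3 ± 2.0 FPKM in siNC, and the escort gene Scap averaged 8.03 ± 0.43 FPKM in siSetdb1 and 7.21 ± 0.75 FPKM in siNC. Srebf2, the gene of SREBP2 itself, averaged 90.0 ± 4.0 FPKM in siSetdb1 and 97.7 ± 9.4 FPKM in siNC (log2 fold change -0.11, 95% interval -0.31 to 0.08, adjusted p = 0.389). Its high value in siNC was that of replicate 1, at 108.6 FPKM, and the log2 fold change was -0.04 without that library. RNA levels do not show how much of the SREBP2 protein was cut.

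Npc1 rose, and the other trafficking genes did not pass. Npc1 (ENSMUSG00000024413) lies on the minus strand of chromosome 18 at positions 12189692 to 12236400 of mm10 and encodes the membrane protein that passes cholesterol out of lysosomes after lipoprotein uptake. It had 11.2, 10.3 and 10.4 FPKM in siSetdb1 against 8.48, 7.62 and 8.34 FPKM in siNC, with each siSetdb1 library above each siNC library. The mean was 30.9% higher, at 10.7 ± 0.5 FPKM in siSetdb1 and 8.15 ± 0.46 FPKM in siNC (log2 fold change 0.35, SE 0.07, 95% interval 0.18 to 0.52, adjusted p = 0.0205, limma). Without siNC replicate 1 the change was 0.38 (adjusted p = 0.0153). Leaving out siNC replicate 2 gave an adjusted p of 0.0657, leaving out siSetdb1 replicate 1, 2 or 3 gave 0.0946, 0.064 or 0.0564, and testing all genes unfiltered gave 0.0561.

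The exons of Npc1 share 511 bases, 4.52% of their length, with Rmc1 on the opposite strand, and without a strand mark reads there cannot be told apart. Rmc1, the gene of a subunit of a complex of the late endosome, also rose, to 10.7, 10.4 and 10.8 FPKM in siSetdb1 against 8.95, 8.24 and 9.11 FPKM in siNC (log2 fold change 0.25, adjusted p = 0.0446, limma). It was looked at after the values of Npc1 were seen.

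Npc2, the gene of the soluble lysosomal protein that hands cholesterol to NPC1, averaged 38.1 ± 3.7 FPKM in siSetdb1 and 43.5 ± 4.9 FPKM in siNC (log2 fold change -0.19, 95% interval -0.42 to 0.05, adjusted p = 0.257), and its log2 fold change was -0.10 without siNC replicate 1. Stard4, a cytosolic sterol carrier gene that SREBP2 is known to control, had 36.3, 34.2 and 34.1 FPKM in siSetdb1 against 26.3, 33.4 and 31.8 FPKM in siNC. Its groups did not overlap, but siNC replicate 1 was far below the other siNC libraries, and the log2 fold change was 0.19 (adjusted p = 0.21) with it and 0.09 (adjusted p = 0.32) without it.

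**Figure D2:**
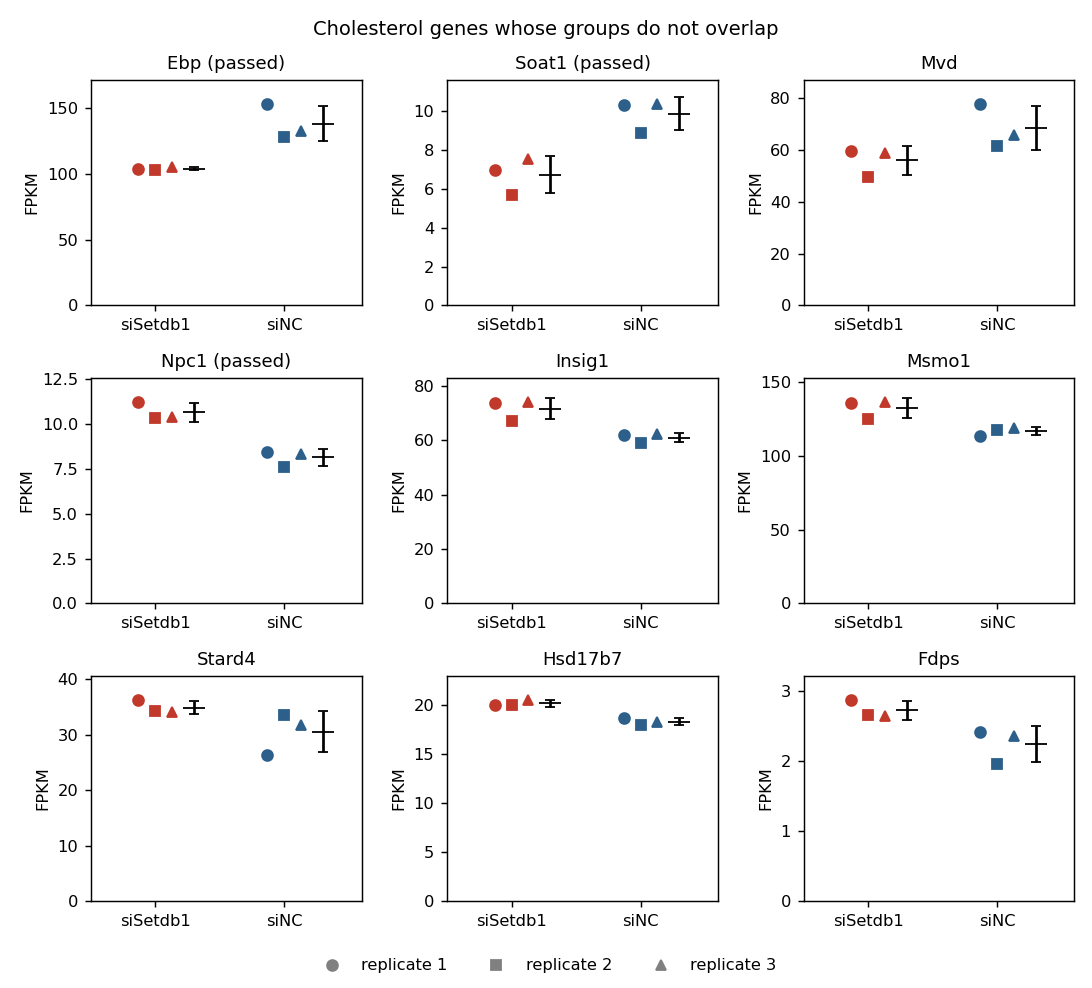
FPKM in each library of the 9 cholesterol genes whose groups did not overlap, siSetdb1 in red and siNC in blue, with the marker shape giving the replicate number and the black bar the mean ± SD of 3 libraries. Ebp, Soat1 and Npc1 passed the test, and the low siNC value of Stard4, 26.3 FPKM, is replicate 1.

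Soat1 fell, and the other 2 esterification genes did not pass. Soat1 (ENSMUSG00000026600) lies on the minus strand of chromosome 1 at positions 156424525 to 156474331 of mm10 and encodes the enzyme of the endoplasmic reticulum that joins cholesterol to a fatty acid for storage. It had 6.99, 5.70 and 7.55 FPKM in siSetdb1 against 10.3, 8.90 and 10.4 FPKM in siNC. The groups did not overlap, and the mean fell by 31.7%, to 6.75 ± 0.95 FPKM in siSetdb1 against 9.87 ± 0.85 FPKM in siNC, the largest change in size of the 29 genes (log2 fold change -0.49, SE 0.11, 95% interval -0.75 to -0.24, adjusted p = 0.025, limma). Each library held 952 to 1746 reads of the gene. The change was -0.46 (adjusted p = 0.0423) without siNC replicate 1. Leaving out siNC replicate 3 gave an adjusted p of 0.063, leaving out siSetdb1 replicate 1 or 2 gave 0.076 or 0.0726, and testing all genes unfiltered gave 0.0754.

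Soat2, the form of this enzyme known from hepatocytes and intestine, was low, at 2.38 ± 0.18 FPKM in siSetdb1 and 2.08 ± 0.43 FPKM in siNC, from 62 to 97 reads per library. Its log2 fold change was 0.14 with a 95% interval of -0.13 to 0.42, and it was 0.23 without siNC replicate 1 and 0.03 without siNC replicate 2, never past the test. The difference between the changes of Soat1 and Soat2 was not tested. Lcat, the gene of a plasma enzyme that esterifies cholesterol on lipoproteins, was at 1.26 ± 0.08 FPKM in siSetdb1 and 1.29 ± 0.44 FPKM in siNC, from 19 to 39 reads per library, and the 95% interval of its log2 fold change was -0.35 to 0.34.

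The 6 libraries differed within groups as well as between them. In siSetdb1, replicate 2 was the lowest of the 6 libraries for 11 of the 29 genes and the highest for none, beside 17.0% lowest and 18.3% highest over all genes tested. In siNC, replicate 1 was the highest of the 6 libraries for 11 of the genes (37.9%) and the lowest for 7 (24.1%), beside 30.7% and 25.8% of all genes tested. The 7 genes with their lowest value in that library included Idi1, Hmgcs1, Ggps1 and Stard4, whose log2 values differed from the mean of the other siNC libraries by -0.57, -0.30, -0.41 and -0.30. Those with their highest value there included Ebp, Mvd and Mvk, with 0.23, 0.28 and 0.32. Genes of the same pathway thus deviated in opposite directions within that library. Without it, the log2 fold change of Hmgcs1 was 0.10 in place of 0.20, that of Mvk -0.02 in place of -0.13, that of Acat2 -0.01 in place of -0.10, that of Tm7sf2 -0.06 in place of -0.14, that of Fdft1 -0.10 in place of -0.16, that of Insig2 0.13 in place of 0.19 and that of Scap 0.21 in place of 0.14, and none of them passed. The median size of this deviation was 0.184 over the 29 genes and 0.166 over all genes tested.

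**Figure D3:**
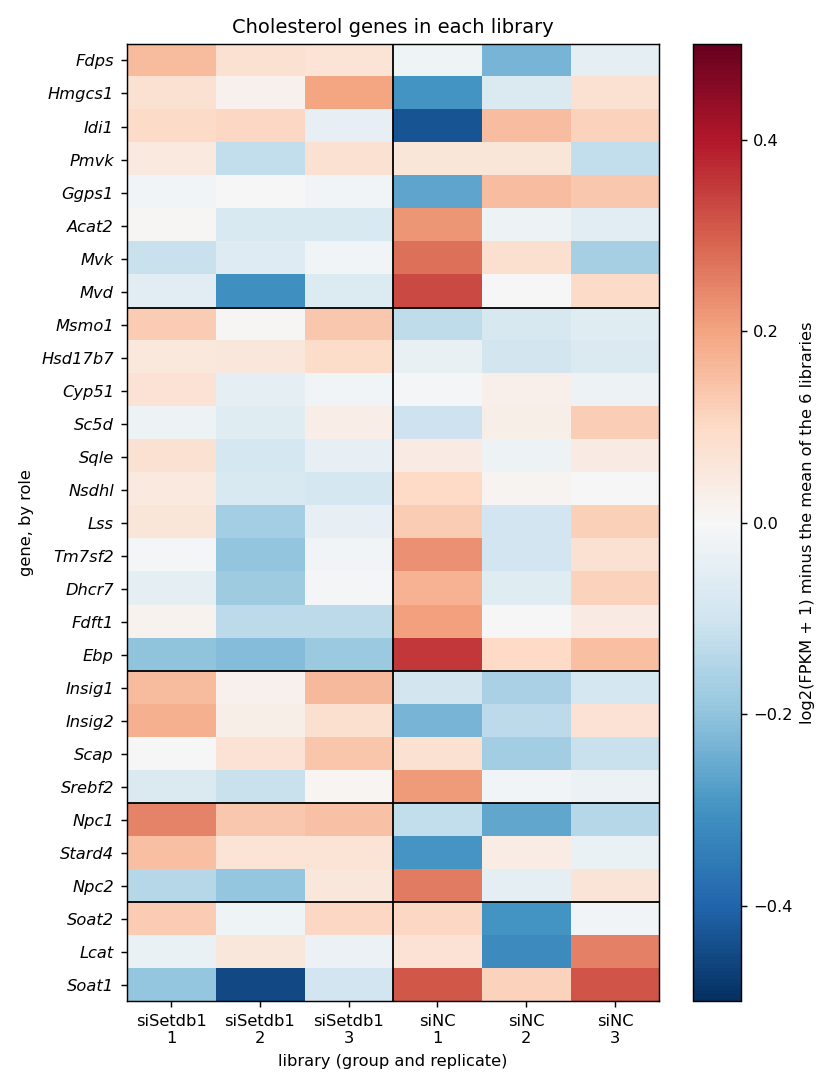
Each cell is log2(FPKM + 1) of a gene in a library minus the mean of that gene over the 6 libraries, red above and blue below it, with siSetdb1 libraries left of the line and siNC libraries right of it and genes grouped by role. Ebp, Soat1 and Npc1 differ between the sides. In siNC replicate 1, Idi1, at -0.43, Ebp, at 0.35, and Mvd, at 0.33, stand out.

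The promoters of the cholesterol genes share letters that the choice of genes did not use. SREBP2 is known to bind a sterol regulatory element, usually beside sites of the general factors NF-Y and Sp1. Windows of 300 bases, from 250 before to 50 after a transcription start, were at hand in RefSeq (GRCm38.p6) for 24 of the 30 names, Mylip included and Fdft1, Fdps, Sqle, Stard4, Npc1 and Soat2 not. On either strand, CCAAT, the NF-Y site, was found for 22 of the 24 (91.7%), beside 43.7% of the 8828 tested genes with a window and 41.1% of all 27025 genes. GGGCGG, the Sp1 site, was found for 21 (87.5%), beside 69.7% of tested genes and 38.2% of all genes. TCACNCCAC, the core of the sterol regulatory element, was found for Hmgcs1 alone among the 24 (4.17%), beside 1.42% of tested genes and 1.44% of all genes. A gene with several starts was counted once if any of its windows held the letters, and a match is not a bound site. Only these exact letters were searched for, so a site with other letters or outside the window was not counted.

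The windows below are those of Ebp and Soat1, which fell, of Insig1, the control gene nearest to the threshold, and of Hmgcs1, which holds the sterol element core. Capitals mark the 3 motifs on either strand (ATTGG and CCGCCC are CCAAT and GGGCGG on the other strand), and in these windows no 2 matches overlap.
Ebp, chrX:8193463-8193762, minus strand: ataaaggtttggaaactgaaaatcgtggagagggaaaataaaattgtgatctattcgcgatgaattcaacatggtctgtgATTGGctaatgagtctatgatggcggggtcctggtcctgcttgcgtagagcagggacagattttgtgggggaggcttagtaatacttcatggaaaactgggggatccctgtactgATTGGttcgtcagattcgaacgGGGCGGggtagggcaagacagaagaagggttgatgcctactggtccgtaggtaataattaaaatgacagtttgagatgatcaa
Soat1, chr1:156474279-156474578, minus strand: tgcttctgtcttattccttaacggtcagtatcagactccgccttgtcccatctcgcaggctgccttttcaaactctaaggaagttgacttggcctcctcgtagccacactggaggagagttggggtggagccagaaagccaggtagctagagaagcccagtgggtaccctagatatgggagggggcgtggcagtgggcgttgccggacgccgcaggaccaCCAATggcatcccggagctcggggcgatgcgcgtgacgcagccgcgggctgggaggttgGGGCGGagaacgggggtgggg
Insig1, chr5:28071162-28071461, plus strand: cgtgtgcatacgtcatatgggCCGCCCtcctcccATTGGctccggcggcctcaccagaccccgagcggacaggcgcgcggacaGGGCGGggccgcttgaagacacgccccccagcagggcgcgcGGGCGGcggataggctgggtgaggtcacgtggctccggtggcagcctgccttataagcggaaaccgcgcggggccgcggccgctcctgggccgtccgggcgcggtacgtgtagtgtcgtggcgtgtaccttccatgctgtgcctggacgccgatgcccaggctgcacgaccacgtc
Hmgcs1, chr13:119690101-119690400, plus strand: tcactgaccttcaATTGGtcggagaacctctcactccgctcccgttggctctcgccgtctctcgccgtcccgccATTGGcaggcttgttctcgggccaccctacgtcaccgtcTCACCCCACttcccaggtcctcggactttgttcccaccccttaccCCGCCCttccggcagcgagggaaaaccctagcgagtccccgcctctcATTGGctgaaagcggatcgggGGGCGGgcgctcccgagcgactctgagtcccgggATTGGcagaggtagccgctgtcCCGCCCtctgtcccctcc

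The Ebp window holds the NF-Y letters 2 times, at -170 to -166 and at -55 to -51 from the start, and the Sp1 letters at -33 to -28. In the Soat1 window the NF-Y letters lie at -30 to -26 and the Sp1 letters after the start, at 30 to 35. The Insig1 window has 1 NF-Y match, at -216 to -212, and 3 Sp1 matches. Hmgcs1 carries the sterol element core at -137 to -129, between 2 of its 4 NF-Y matches, at -176 to -172 and at -45 to -41, and has 3 Sp1 matches. The gene whose promoter held the core letters was at 93.1 FPKM in siSetdb1 and 81.5 FPKM in siNC and did not pass the test (adjusted p = 0.242, limma).

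Genes around the pathway were counted from 7 lists of 85 names, of which 78 had a row and 68 passed the filter on low values. Of these 68, 6 rose, 5 fell and 57 did not pass, so that 16.2% were called, beside 15.1% of all genes tested, with a median log2 fold change of -0.03. Without overlap between the groups were 52.9% of the 68, 20 higher and 16 lower in siSetdb1, beside 39.2% of all genes tested. An unadjusted p under 0.05 (limma) was found for 32 of the 68 genes, a larger share than the 32.2% of all genes tested. The median size of the change was 0.21, beside 0.16 in all genes tested. These counts leave out genes, called ones among them, that are not reported here. Genes of lipoprotein receptors and adaptors that fell were the sorting receptor gene Sort1, with 0.466 ± 0.076 FPKM in siSetdb1 and 0.909 ± 0.128 FPKM in siNC, and the endocytic adaptor gene Dab2, with 0.942 ± 0.128 FPKM in siSetdb1 and 1.46 ± 0.03 FPKM in siNC.

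Among 18 genes of sterol transfer, 2 rose, none fell and 16 did not pass (11.1% called, beside 15.1% of all genes tested). Groups did not overlap for 66.7% of the 18, 7 higher and 5 lower in siSetdb1, beside 39.2% of all genes tested. Osbpl5, the gene of a lipid transfer protein of membrane contact sites, averaged 8.77 ± 0.53 FPKM in siSetdb1 and 6.54 ± 0.53 FPKM in siNC (0.37, adjusted p = 0.0239, limma), and Gramd1b, which moves cholesterol from the plasma membrane to the endoplasmic reticulum, averaged 6.66 ± 0.23 FPKM in siSetdb1 and 5.44 ± 0.21 FPKM in siNC (0.25, adjusted p = 0.0471). Of 17 genes that use isoprenoids made by the pathway, 3 rose, none fell and 14 did not pass (17.6% called, beside 15.1%). Those that rose were the prenyltransferase subunit genes Fntb (0.35) and Rabggtb (0.31) and the dolichol recycling gene Dolpp1 (0.36). Of the 17, 11 had a positive log2 fold change, a larger share than the 46.7% of all genes tested. Without overlap between the groups were 5 higher and 2 lower in siSetdb1 (41.2%, beside 39.2% of all genes tested). Nus1, a subunit gene of the enzyme that makes dolichol, was listed with the sterol enzymes and is not among these 17. It rose by 0.29 on the log2 scale.

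Of 9 genes of SREBP processing and sterol-driven degradation, Ube2g2, the gene of a ubiquitin-conjugating enzyme of that degradation, fell (-0.31, adjusted p = 0.0442, limma) and 8 did not pass. The share called was 11.1%, beside 15.1% of all genes tested, and 66.7% did not overlap, 3 higher and 3 lower, beside 39.2%. Of 7 genes of LXR and cholesterol efflux, Nr1h3, the gene of the sterol receptor LXR alpha, fell (-0.36, adjusted p = 0.0369) and 6 did not pass. There 14.3% were called and 28.6% did not overlap, 0 higher and 2 lower. Of 5 genes of bile acid and oxysterol synthesis, Amacr, the gene of a racemase of bile acid side chains, fell, to 5.69 ± 0.34 FPKM in siSetdb1 against 7.72 ± 0.45 FPKM in siNC (-0.38, adjusted p = 0.0175), and 4 did not pass. Here 20% were called and 60% did not overlap, 1 higher and 2 lower. All 11 called genes of these lists missed the threshold without siSetdb1 replicate 2, as they did without siSetdb1 replicate 3, 10 without siSetdb1 replicate 1, 9 without siNC replicate 2, 7 without siNC replicate 3 and 3 without siNC replicate 1, which were Nr1h3, Sort1 and Dab2 (adjusted p = 0.0547, 0.0884 and 0.0664).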

How the data were processed

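RNA of 6 samples was sequenced as single-end reads of 50 bases, per the labels' protocols, from a library kit for which no strand-marking step is named. The submitters' processing notes name, with no role for any, the tools RSEM 1.2.12, HISAT2 2.0.4, DESeq2 1.4.5 and Bowtie2 2.2.5 and the mouse build mm10. The headers of the deposited table name no unit. The deposited values are FPKM: multiplied by the exon lengths of GENCODE M21 they are whole reads within 0.01 for 98.6% of genes, which gave each library's total. The treatment of reads that fit several genes is not given in the sources used here.

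Genes that reached 0.5 FPKM in 3 libraries or more (12846, with 12570 left out) entered a model of group alone, fitted to log2(FPKM + 1) by limma 3.58.1 (R 4.3.3) with a robust prior variance that follows the mean level. Two-sided p-values were adjusted by the Benjamini-Hochberg method over all genes tested, with a threshold of 0.05. FPKM scales the reads of each gene to the read total of its library, so abundant genes that gain reads lower the values of the rest. Within groups, pairs of libraries had a chi-square of 5.06 to 26.1 per degree of freedom, above the level of sampling noise. Samples were grouped by their titles. Alternatives were other pseudocounts, filters, scaling and priors, limma-voom on the recovered reads, a replicate block and leaving out each library. All 29 genes are accounted for, values in every library being given for those that passed, did not overlap or had the largest change of their role. Genes of other lists are named where they passed, and counts over these lists leave out genes, called ones among them, that are not reported here. The members and lists were chosen with earlier results of these data known. Windows of 50 bases were compared, on both strands, with all transcripts of GENCODE M21.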

Additional observations from a re-analysis of the deposited data

How the results depend on the processing

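Cholesterol genes that passed were Npc1 (higher) and Ebp and Soat1 (lower), and the same 3 passed with pseudocounts of 0.1 and 0.5, with a filter at 1 FPKM, with median-ratio scaling, with a constant prior variance, with limma-voom on recovered reads and without siNC replicate 1. With no filter on low values 0 were called higher and 0 lower, in a test of 25416 genes in which 890 were called, 460 higher and 430 lower. Leaving out each library in turn gave 0 to 1 cholesterol genes called higher and 0 to 2 called lower, and 683 to 2176 genes called in all, 355 to 1101 higher and 326 to 1075 lower. These fits hold 2 libraries in the reduced group, and the cause of lost calls was not tested. With the replicate number as a block 1015 genes were called, 480 higher and 535 lower, and 0 cholesterol genes were higher, Npc1 having an adjusted p = 0.0515 (limma). Deviations of same-numbered libraries from their group means correlated at -0.157, 0.167 and -0.172 across genes for replicates 1, 2 and 3. Not every library correlated best with its own number, and siSetdb1 replicate 3 correlated at 0.283 with siNC replicate 1. Deviations from the mean of so few libraries depend on each other, so these values cannot tell whether the numbers pair the samples.

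Values near 0 changed sign without passing in any setting. Lcat (-0.00452) was at 0.015, 0.00143, 0.0108 and 0.0217 with pseudocounts of 0.1 and 0.5, median-ratio scaling and limma-voom, and Ggps1 (-0.0162) was at 0.00714 with median-ratio scaling. When a library was left out, Lcat ranged from -0.16 to 0.12, Ggps1 from -0.152 to 0.0568, Idi1 from -0.0828 to 0.21, Pmvk from -0.0582 to 0.0643, Cyp51 from -0.0288 to 0.0310 and Sc5d from -0.0952 to 0.0183. The log2 fold change of Sort1, at under 1 FPKM, was -0.38 with a pseudocount of 1, -0.84 with 0.1 and -0.96 with limma-voom. Median-ratio scaling moved the median of all genes from -0.02 to 0.00 on the log2 scale and turned round the balance of calls, with 997 genes higher and 846 lower in place of 883 and 1062. Of the 11 called genes of the other lists, all 11 missed the threshold with no filter on low values, 9 with the replicate block, 4 with a constant prior variance and 1 with median-ratio scaling. Depth limits Lcat and Soat2, at 19 to 97 reads per library.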
